A study of Arabidopsis thaliana with 30 samples.

Results

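The genes described here are PYK10 (AT3G09260) and NAI2 (AT3G15950), whose proteins are part of the endoplasmic reticulum (ER) body, NAI1 (AT2G22770), a regulator of ER body genes, and BGLU19 (AT3G21370), a β-glucosidase gene of the seed. They were chosen by name, through the probe sets annotated to their loci, with earlier results of these data known. They make up 4 of the 13286 Arabidopsis thaliana genes that had a probe set of their own. Each was read by 1 probe set. Transcripts were measured on arrays, in seeds dissected from the silique, the fruit of this plant, when they were 8 or 12 days past flowering (DAF). In the Col-0 set, wild-type Col-0 was set against seeds of plants homozygous for fus3-3. In the WS set, wild-type WS was set against seeds of plants homozygous for lec1-1 or for lec2-1. Each of the 10 groups of genotype and age had 3 arrays, which the labels call biological replicates, and all plants grew at 22 °C with 16 h of light and 8 h of darkness a day. No group carried any other allele or agent named in the labels. The samples were whole seeds, so embryo, endosperm and seed coat were measured together, and the mother plant that makes the seed coat carried the mutation too.

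ER bodies are rod-shaped compartments of the endoplasmic reticulum that Arabidopsis and its relatives form in the epidermis of seedlings and in roots. PYK10 is the β-glucosidase that fills them in seedlings and roots. It is held apart from its glucoside substrates, indole glucosinolates among them, until the cell is damaged. NAI1 is a basic helix-loop-helix transcription factor needed for PYK10 and NAI2 expression and for ER bodies to form, and NAI2 is a protein of the ER body itself that is also needed for its formation. BGLU19 belongs to the same glycoside hydrolase family as PYK10, and whether its protein is found in ER bodies was not examined here. LEC1, LEC2 and FUS3 are transcription factors that drive seed maturation, when storage protein and oil are laid down.

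The median log2 signal of an array lay between 4.30 and 4.71, and replicate arrays correlated across genes at r of 0.984 to 0.996. The regulators LEC1, LEC2 and FUS3 were not paired with a probe set by the annotation at hand, which leaves 8730 probe sets unnamed, and were not analysed here, so the genotype labels were not checked against the mutated genes. The label of developing seed was checked with 9 measured of 21 storage and oil body genes, whose mean log2 signal ran from 9.52 in the lowest array of fus3-3 at 8 DAF to 13.01 in the highest array of WS at 12 DAF. The labels number the Col-0 arrays at 12 DAF in a way unlike the others, and whether those came from separate batches of plants was not tested. With 3 arrays a group, precision is limited by their number.

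All levels are the deposited log2 signals, ± after a level is the standard deviation (SD) over 3 arrays, and ± after a change is its standard error (SE) from limma. A gene is said to have risen, fallen or changed where its Benjamini-Hochberg adjusted p over all 13286 genes was under 0.05 and the change at least 2-fold. A group mean under 3 lies near the bottom of the scale, so a fold against it is written as a lower bound. Signals of different probe sets are not compared with each other. In whole seeds, fewer cells of a type and less RNA per cell cannot be told apart.

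PYK10 was near the bottom of the scale in 3 of the 4 wild-type groups, somewhat higher in Col-0 at 8 DAF, and rose in every mutant at both ages. In Col-0 its log2 signals at 8 DAF were 4.43, 4.82 and 4.10, and in fus3-3 they were 11.72, 12.04 and 12.17. At 12 DAF the Col-0 arrays gave 2.44, 2.52 and 2.52, and the fus3-3 arrays 12.78, 12.43 and 12.92. Every fus3-3 array lay over 6 log2 units above every Col-0 array of its age. PYK10 was 185-fold higher in fus3-3 at 8 DAF (log2 change 7.53 ± 0.19, adjusted p = 8.62e-08) and at least 1190-fold higher at 12 DAF (10.22 ± 0.19, adjusted p = 1.34e-09).

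In the WS set the same gene separated the mutants from the wild type and from each other. The WS arrays gave PYK10 signals of 2.56, 2.49 and 2.52 at 8 DAF and 2.47, 2.44 and 2.53 at 12 DAF. The lec1-1 arrays gave 11.82, 11.96 and 12.11 at 8 DAF and 12.22, 12.21 and 12.10 at 12 DAF. The lec2-1 arrays gave 8.12, 7.76 and 8.25 at 8 DAF and 9.21, 8.44 and 8.95 at 12 DAF. No array of lec2-1 reached the range of lec1-1, and none fell to that of WS. PYK10 was at least 695-fold higher than in WS in lec1-1 at 8 DAF (9.44 ± 0.16, adjusted p = 1.82e-13) and at least 829-fold at 12 DAF (9.70 ± 0.16, adjusted p = 4.55e-14). In lec2-1 it was at least 45.9-fold higher at 8 DAF (5.52 ± 0.16, adjusted p = 4.47e-11) and at least 83.6-fold at 12 DAF (6.39 ± 0.16, adjusted p = 3.91e-12). Set directly against lec2-1, PYK10 in lec1-1 was 15.1-fold higher at 8 DAF (3.92, 95% interval 3.58 to 4.26, adjusted p = 1.45e-09) and 9.92-fold higher at 12 DAF (3.31, 2.97 to 3.65, adjusted p = 2.95e-09).

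Ordered by mean, PYK10 ran from fus3-3 at 12 DAF (12.71 ± 0.25) through lec1-1 at 12 DAF (12.18 ± 0.06), fus3-3 at 8 DAF (11.98 ± 0.23) and lec1-1 at 8 DAF (11.96 ± 0.14). Below these came lec2-1 at 12 DAF (8.87 ± 0.39), lec2-1 at 8 DAF (8.04 ± 0.26) and Col-0 at 8 DAF (4.45 ± 0.36). WS at 8 DAF (2.52 ± 0.03), Col-0 at 12 DAF (2.49 ± 0.04) and WS at 12 DAF (2.48 ± 0.05) closed the order. The arrays of lec1-1 at 12 DAF, fus3-3 at 8 DAF and lec1-1 at 8 DAF overlapped from each to the next, as did those of the last 3 groups, and no other neighbours overlapped.

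**Figure D1:**
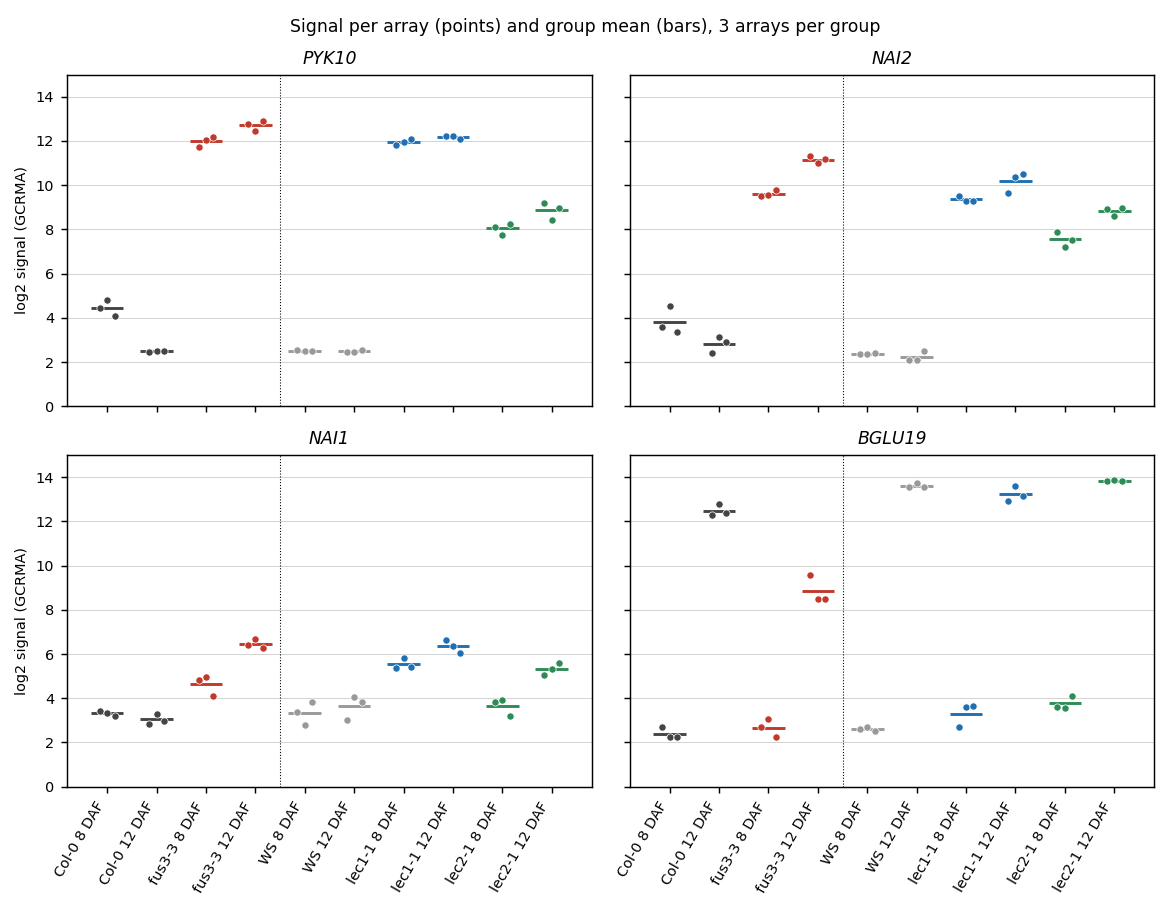
Log2 signal (GCRMA) of PYK10, NAI2, NAI1 and BGLU19 on each of the 30 arrays, by group of genotype and age. Points are arrays, bars are the means of 3 arrays, and the dotted line separates the Col-0 set from the WS set. PYK10 lies between 7.76 and 12.92 in the mutant groups and at or below 4.82 in the wild types, while BGLU19 is at or below 4.11 in every group at 8 DAF and at or above 8.48 in every group at 12 DAF.

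NAI2 followed the same order of genotypes. Its log2 signals at 8 DAF were 3.60, 4.54 and 3.36 in Col-0 against 9.50, 9.55 and 9.77 in fus3-3. At 12 DAF they were 2.41, 3.14 and 2.93 in Col-0 against 11.30, 10.98 and 11.17 in fus3-3. The groups were far apart at both ages. NAI2 was 54.6-fold higher in fus3-3 at 8 DAF (5.77 ± 0.29, adjusted p = 3.03e-06) and at least 321-fold higher at 12 DAF (8.33 ± 0.29, adjusted p = 6.54e-08).

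In WS the NAI2 signals were 2.38, 2.35 and 2.43 at 8 DAF and 2.10, 2.10 and 2.49 at 12 DAF. In lec1-1 they were 9.51, 9.27 and 9.29 at 8 DAF and 9.65, 10.39 and 10.49 at 12 DAF. The lec2-1 arrays gave 7.90, 7.22 and 7.52 at 8 DAF and 8.93, 8.62 and 8.96 at 12 DAF, above WS and below lec1-1 without overlap. NAI2 was at least 125-fold higher than in WS in lec1-1 at 8 DAF (6.97 ± 0.21, adjusted p = 2.9e-11) and at least 247-fold at 12 DAF (7.95 ± 0.21, adjusted p = 2.67e-12). In lec2-1 the rises were at least 35.7-fold at 8 DAF (5.16 ± 0.21, adjusted p = 2.81e-09) and at least 97.4-fold at 12 DAF (6.61 ± 0.21, adjusted p = 3.65e-11). Between the mutants, NAI2 was 3.51-fold higher in lec1-1 than in lec2-1 at 8 DAF (1.81, 95% interval 1.36 to 2.26, adjusted p = 2.79e-05) and 2.53-fold higher at 12 DAF (1.34, 0.89 to 1.79, adjusted p = 0.000171). The order of group means was that of PYK10 for the highest 7 groups, from 11.15 ± 0.16 in fus3-3 at 12 DAF down to 3.83 ± 0.62 in Col-0 at 8 DAF. The arrays of Col-0 at 12 DAF (2.83 ± 0.38), WS at 8 DAF (2.39 ± 0.04) and WS at 12 DAF (2.23 ± 0.22) overlapped from each to the next.

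NAI1, the transcription factor gene, rose in 5 of the 6 mutant comparisons, by 2.47-fold to 10.6-fold. The Col-0 arrays gave log2 signals of 3.44, 3.35 and 3.20 at 8 DAF and 2.85, 3.29 and 2.98 at 12 DAF. The fus3-3 arrays gave 4.82, 4.96 and 4.12 at 8 DAF and 6.40, 6.68 and 6.28 at 12 DAF, above Col-0 on every array. NAI1 was 2.47-fold higher in fus3-3 at 8 DAF (95% interval 0.82 to 1.79 on the log2 scale, adjusted p = 0.00302) and 10.6-fold higher at 12 DAF (3.41 ± 0.22, adjusted p = 1.89e-06). The Col-0 mean at 12 DAF was 3.04, barely over 3, so the fold at that age may be a lower bound too.

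WS gave NAI1 signals of 3.40, 2.78 and 3.82 at 8 DAF and 3.03, 4.08 and 3.85 at 12 DAF. The lec1-1 arrays gave 5.38, 5.80 and 5.40 at 8 DAF and 6.62, 6.36 and 6.04 at 12 DAF, clear of WS at both ages. In lec2-1 the signals were 3.85, 3.92 and 3.22 at 8 DAF, where 2 arrays lay just above the highest WS array and 1 within the WS range, and 5.03, 5.30 and 5.61 at 12 DAF, above WS. NAI1 rose in lec1-1 by 4.57-fold at 8 DAF (2.19 ± 0.31, adjusted p = 7.99e-05) and by 6.46-fold at 12 DAF (2.69 ± 0.31, adjusted p = 5.05e-06). In lec2-1 it rose by 3.17-fold at 12 DAF (1.67 ± 0.31, adjusted p = 0.00123), while at 8 DAF the change of 0.33 did not pass (95% interval -0.34 to 0.99, adjusted p = 0.757). PYK10 and NAI2 had risen in that same comparison, lec2-1 at 8 DAF. The NAI1 means there, 3.66 in lec2-1 and 3.34 in WS, were only a little over 3, so the size of its change may not be exact.

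Between lec1-1 and lec2-1, NAI1 differed by 3.64-fold at 8 DAF (1.86 ± 0.31, adjusted p = 0.000666) and by 2.04-fold at 12 DAF (1.03 ± 0.31, adjusted p = 0.02). The difference at 12 DAF no longer passed without lec1-1 replicate 1 or 2, or without lec2-1 replicate 1 or 2, with values from 0.88 to 1.02 and adjusted p from 0.0523 to 0.0804. Ordered by mean, NAI1 was highest in fus3-3 (6.45 ± 0.20) and lec1-1 (6.34 ± 0.29) at 12 DAF, whose arrays overlapped. Next were lec1-1 at 8 DAF (5.53 ± 0.24) and lec2-1 at 12 DAF (5.32 ± 0.29), which overlapped too, and then fus3-3 at 8 DAF (4.63 ± 0.45). The remaining groups, lec2-1 at 8 DAF (3.66 ± 0.39) and the wild types (3.04 to 3.65), overlapped from each to the next.

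In each of the 6 mutant comparisons 3 of the 4 genes rose. The 4 genes were chosen with earlier results of these data known, so the shares given here only describe them and test nothing. For fus3-3 the share of all genes that rose was 4.04% at 8 DAF and 12% at 12 DAF. For lec1-1 it was 4.76% and 10.4%, and for lec2-1 it was 1.6% and 5.1%, at the same ages. The risen genes were PYK10, NAI2 and NAI1 everywhere but in lec2-1 at 8 DAF, where BGLU19 took the place of NAI1. In fus3-3 at 12 DAF the fourth gene, BGLU19, fell, where 11.5% of all genes fell. Between lec1-1 and lec2-1, 3 of the 4 genes were higher in lec1-1 at both ages, against 2.27% of all genes at 8 DAF and 5.53% at 12 DAF. The effects of fus3-3 and of the lec mutants came from separate fits and were not tested against each other.

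**Figure D2:**
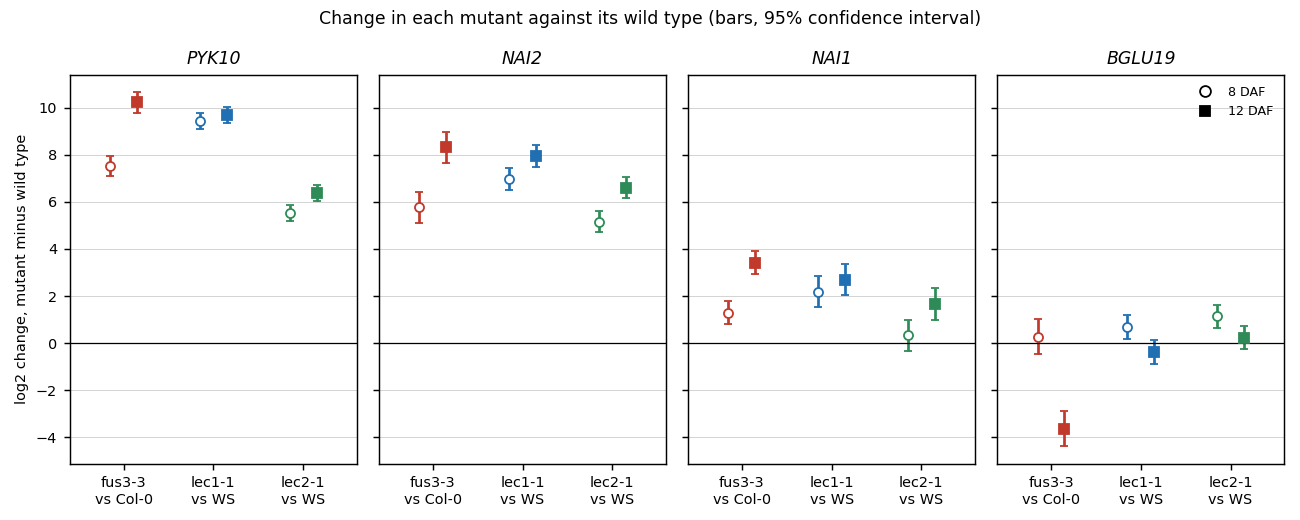
Mutant minus wild type, as log2 change, of PYK10, NAI2, NAI1 and BGLU19 at 8 DAF (circles) and 12 DAF (squares), with 95% intervals from limma (n = 3 arrays per group). The changes of PYK10 run from 5.52 to 10.22 and those of NAI2 from 5.16 to 8.33, while BGLU19 lies between -3.63 and 1.15.

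BGLU19 rose with age in all 5 genotypes and differed by genotype mainly in fus3-3 at 12 DAF. At 8 DAF its log2 signals were 2.71, 2.24 and 2.23 in Col-0 and 2.60, 2.71 and 2.53 in WS. At 12 DAF they were 12.27, 12.77 and 12.38 in Col-0 and 13.53, 13.74 and 13.55 in WS. No array of 8 DAF came within 9 log2 units of an array of 12 DAF in either wild type. BGLU19 rose between the ages by at least 1082-fold in Col-0 (10.08 ± 0.33, adjusted p = 5.53e-08) and at least 2032-fold in WS (10.99 ± 0.23, adjusted p = 4.32e-13).

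The mutants rose as well. The lec1-1 arrays went from 2.69, 3.59 and 3.63 to 12.93, 13.60 and 13.16 (change 9.93 ± 0.23, adjusted p = 1.36e-12). The lec2-1 arrays went from 3.62, 3.56 and 4.11 to 13.80, 13.88 and 13.81 (10.07 ± 0.23, adjusted p = 1.15e-12). The fus3-3 arrays went from 2.72, 3.06 and 2.24 to 9.58, 8.49 and 8.48 (6.17 ± 0.33, adjusted p = 2.6e-06). At 12 DAF the fus3-3 arrays lay below all other arrays of that age. BGLU19 was 12.4-fold lower in fus3-3 than in Col-0 at 12 DAF (-3.63, 95% interval -4.36 to -2.89, adjusted p = 1.77e-05).

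At the same age BGLU19 did not pass in lec1-1 (-0.37, 95% interval -0.87 to 0.12, adjusted p = 0.156) or in lec2-1 (0.23, -0.26 to 0.72, adjusted p = 0.441) against WS. At 8 DAF it was not past the threshold in fus3-3 (0.28, -0.46 to 1.01, adjusted p = 0.701) or in lec1-1 (0.69, 0.20 to 1.18, adjusted p = 0.0352, a change under 2-fold). In lec2-1 at 8 DAF it rose by at least 2.22-fold (1.15 ± 0.23, adjusted p = 0.00479), and without lec2-1 replicate 3 the change was 0.97, under 2-fold. Between lec1-1 and lec2-1 the differences of -0.46 at 8 DAF (-0.95 to 0.03) and -0.60 at 12 DAF (-1.09 to -0.11) did not pass, with adjusted p of 0.225 and 0.0605. By mean, the order at 12 DAF was lec2-1 (13.83 ± 0.04), WS (13.60 ± 0.11), lec1-1 (13.23 ± 0.34), Col-0 (12.47 ± 0.26) and fus3-3 (8.85 ± 0.63), and of these neighbours WS and lec1-1 overlapped. At 8 DAF the order was lec2-1 (3.76 ± 0.30), lec1-1 (3.30 ± 0.53), fus3-3 (2.67 ± 0.42), WS (2.62 ± 0.09) and Col-0 (2.39 ± 0.27), each overlapping the next.

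PYK10 and NAI2 fell with age in Col-0, and none of the 3 ER body genes passed in WS. PYK10 fell in Col-0 from 8 to 12 DAF by at least 3.88-fold (-1.96 ± 0.19, adjusted p = 4.94e-05), and NAI2 by at least 2.01-fold (-1.01 ± 0.29, adjusted p = 0.0253). The NAI2 value did not pass without Col-0 replicate 2 of 8 DAF (-0.65) or Col-0 replicate 1 of 12 DAF (-0.80). NAI1 in Col-0 did not pass (-0.29, adjusted p = 0.331), nor did any of these 3 genes in WS, with changes of -0.04 for PYK10, -0.16 for NAI2 and 0.32 for NAI1. Counting BGLU19, 1 of the 4 genes rose and 2 fell in Col-0, where 8.44% of all genes rose and 9.71% fell, and 1 rose in WS, where 6.45% rose and 8.87% fell.

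None of the 3 ER body genes fell with age in a mutant. In fus3-3 NAI1 rose 3.53-fold (1.82 ± 0.22, adjusted p = 0.000402) and NAI2 2.92-fold (1.55 ± 0.29, adjusted p = 0.006), while PYK10 was 0.73 higher, under 2-fold (adjusted p = 0.0305). In lec2-1 NAI1 rose 3.15-fold (1.65 ± 0.31, adjusted p = 0.000727) and NAI2 2.45-fold (1.29 ± 0.21, adjusted p = 0.000212). PYK10 was 0.82 higher in lec2-1 (adjusted p = 0.000913), under 2-fold, and 1.04 higher without lec2-1 replicate 2 of 12 DAF, which passed. In lec1-1 the changes were 0.21 for PYK10 (adjusted p = 0.403), 0.82 for NAI1 (adjusted p = 0.0645) and 0.82 for NAI2 (adjusted p = 0.00766), and the last passed without lec1-1 replicate 1 of 12 DAF (1.08). With BGLU19, 3 of 4 genes rose in fus3-3 and in lec2-1 and 1 of 4 in lec1-1, against 4.25%, 6.65% and 6.22% of all genes.

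The difference between the age change of a mutant and that of its wild type was tested in the same fits. In fus3-3 it passed for all 4 genes, with PYK10 at 2.69 ± 0.27, NAI2 at 2.56 ± 0.41, NAI1 at 2.11 ± 0.30 and BGLU19 at -3.91 ± 0.46. The values for PYK10, NAI2 and BGLU19 rest on groups with a mean under 3 (for BGLU19 both groups of 8 DAF), so their sizes are not exact. The share of all genes past the threshold there was 8.27% higher and 7.59% lower. In lec2-1 it passed for NAI2 (1.45 ± 0.29, adjusted p = 0.00391) and NAI1 (1.34 ± 0.44, adjusted p = 0.0467), where 5.16% of all genes were higher, and the NAI2 value rests on WS groups with means under 3. The NAI1 value did not pass with the replicate number as a block (adjusted p = 0.069). Nor did it after centring on reference genes (adjusted p = 0.0569) or repeated quantile normalization (adjusted p = 0.0943). With only the groups compared it did not pass either (adjusted p = 0.0932). It was also lost on leaving out WS replicate 1 or 3 of either age, lec2-1 replicate 1 or 3 of 8 DAF, or lec2-1 replicate 2 or 3 of 12 DAF (1.03 to 1.44, adjusted p from 0.0545 to 0.107). PYK10 in lec2-1 (0.86, adjusted p = 0.0164) was under 2-fold, and passed without lec2-1 replicate 2 of 12 DAF (1.08). BGLU19 in lec2-1 did not pass (-0.92, adjusted p = 0.0603).

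In lec1-1 the age change of BGLU19 was smaller than in WS by 1.06 ± 0.32 (-1.06, adjusted p = 0.017), where 6.7% of all genes were lower. WS at 8 DAF had a mean of 2.62, so this size is not exact. That call was lost without lec1-1 replicate 2 or 3 of 8 DAF, lec1-1 replicate 1 of 12 DAF or WS replicate 2 of 12 DAF, where the change was under 2-fold. NAI2 in lec1-1, at 0.98 and under 2-fold (adjusted p = 0.0165), passed without lec1-1 replicate 1 of 8 DAF (1.05), lec1-1 replicate 1 of 12 DAF (1.24) or WS replicate 3 of 12 DAF (1.11). PYK10 (0.25, adjusted p = 0.342) and NAI1 (0.50, adjusted p = 0.339) did not pass.

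The wild types were compared across the sets, where the genetic background and the set of plants cannot be told apart. At 8 DAF, PYK10 was at least 3.80-fold lower in WS than in Col-0 (-1.93 ± 0.18, adjusted p = 5.09e-08) and NAI2 at least 2.73-fold lower (-1.45 ± 0.25, adjusted p = 0.000221), so 2 of the 4 genes were lower, against 3.27% of all genes. At 12 DAF, BGLU19 was 2.19-fold higher in WS (1.13 ± 0.28, adjusted p = 0.00472), and 2.02% of all genes were higher. The difference in BGLU19 did not pass with the 3 Col-0 arrays of 12 DAF averaged to 1 (adjusted p = 0.0795). NAI1 did not pass at 8 DAF (0.01, 95% interval -0.58 to 0.59) or at 12 DAF (0.61, 0.02 to 1.20, adjusted p = 0.109). Of 3 measured seed coat markers, 2 were also lower in WS at 8 DAF, against 3.27% of all genes. They were BAN (-3.37 ± 0.32) and AT3G50990 (-2.22 ± 0.21, with a WS mean under 3). Of 9 storage and oil body genes, 2 were higher in WS at 8 DAF, against 422 of all 13286. No gene of either list passed at 12 DAF. The part of such differences in the results was not tested.

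Markers of other seed and fruit tissues and the signs of RNA quality moved with some of these groups. ALC, the silique wall marker measured of 5 listed, rose in fus3-3 (1.67 ± 0.26), lec1-1 (2.06 ± 0.19) and lec2-1 (1.57 ± 0.19) at 12 DAF, and passed in no mutant at 8 DAF. Its level ran from 3.42 to 4.15 over the Col-0 arrays of 12 DAF and from 4.96 to 5.70 over those of fus3-3. It ran from 3.21 to 3.84 in WS, 5.38 to 5.58 in lec1-1 and 4.94 to 5.11 in lec2-1. Of 3 measured of 9 endosperm markers, MPC rose at 12 DAF in fus3-3 (3.05 ± 0.15) and lec1-1 (3.39 ± 0.33), while AGL62 and IKU2 were at or below 3.00 on every array. Of all genes, 12% rose in fus3-3, 10.4% in lec1-1 and 5.1% in lec2-1 at 12 DAF. At 8 DAF no measured endosperm or silique wall marker passed. ALC was higher there too, by 0.86 in fus3-3 (adjusted p = 0.0532), 0.60 in lec1-1 (adjusted p = 0.0246) and 0.65 in lec2-1 (adjusted p = 0.0386), each under 2-fold, and the endosperm markers were near the bottom of the scale in all groups of that age.

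The mean level of the 3 endosperm markers lay between 2.47 and 2.73 in all wild-type arrays, and reached 3.40 to 3.69 in fus3-3 and 3.41 to 3.91 in lec1-1 at 12 DAF. Of the 3, only MPC was higher there, at 5.66 in fus3-3 against 2.62 in Col-0 and 6.14 in lec1-1 against 2.75 in WS. In the same mutants AGL62 changed by -0.08 and -0.13 and IKU2 by -0.07 and -0.23, each under 2-fold. The mean of 3 measured of 10 seed coat markers lay between 6.66 and 9.11 over the arrays of 8 DAF and between 4.60 and 5.91 over those of 12 DAF. Of these 3 markers, 1 fell in fus3-3 at 8 DAF, where 4.25% of all genes fell. Over the 10 group means, ARA12 had an r of -0.95 and the tannin synthesis gene BAN of -0.89 with BGLU19, while AT3G50990 had an r of -0.4. As a measure of RNA quality, the actin control's 3' minus 5' log2 signal was 5.91 in fus3-3 at 12 DAF (5.40 to 6.78) against 4.87 in Col-0 (4.83 to 4.90). The same difference for the GAPDH control went the other way, at 1.92 in fus3-3 (1.71 to 2.08) against 2.37 in Col-0 (2.07 to 2.74). The part of these tissues and of RNA quality in the results was not tested.

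Over the 10 group means, PYK10 and NAI2 had a Pearson r of 0.99, PYK10 and NAI1 of 0.88, and NAI1 and NAI2 of 0.89. BGLU19 had an r of -0.08 with PYK10 and of 0.26 with NAI1. These values describe 10 points that share arrays, genotypes and ages. PYK10 and NAI2 separated mutant from wild type at both ages, and BGLU19 separated 12 from 8 DAF in every genotype.

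Of 19 other genes listed for the ER body and for the complex that PYK10 forms with lectins, 6 were measured. Jacalin-related lectins (JAL) bind sugars and are found in aggregates with PYK10 when tissue is ground. Among the measured genes, JAL22, JAL23, JAL33 and JAL34 are such lectins. In fus3-3, 3 of the 6 rose at 8 DAF (median change of the list 2.18, of all genes -0.02) and 5 at 12 DAF (median 6.20, of all genes -0.06). In lec1-1, 3 rose at 8 DAF (median 0.97, of all genes 0.01) and 4 at 12 DAF (3.42, of all genes -0.11). In lec2-1, 1 rose at 8 DAF (0.10, of all genes 0.01) and 4 at 12 DAF (3.13, of all genes -0.08). Of all genes, 4.04% rose in fus3-3 at 8 DAF and 12% at 12 DAF. At the same ages the shares were 4.76% and 10.4% in lec1-1, and 1.6% and 5.1% in lec2-1. No listed gene fell in those comparisons, but 1 fell in lec2-1 at 12 DAF without lec2-1 replicate 2.

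JAL34 (AT3G16460) was the list member that rose in all 6. Its level was 2.43 to 2.57 in the wild-type groups, 9.03 ± 0.18 and 10.55 ± 0.08 in fus3-3 at 8 and 12 DAF, 10.33 ± 0.39 and 10.56 ± 0.13 in lec1-1, and 6.64 ± 0.28 and 7.35 ± 0.37 in lec2-1. As with PYK10, the lec2-1 level was below that of lec1-1, by 3.69 at 8 DAF and 3.21 at 12 DAF. JAL22 (AT2G39310) rose at 12 DAF in fus3-3 (5.53 ± 0.27), lec1-1 (6.42 ± 0.25) and lec2-1 (4.04 ± 0.25), and at 8 DAF in lec1-1 (3.46 ± 0.25). AT1G52100 rose at 12 DAF in all 3 mutants (6.86 in fus3-3, 5.33 in lec1-1 and 2.61 in lec2-1) and in none at 8 DAF.

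Other listed genes moved in some genotypes and not in others. JAL33 (AT3G16450) reached 8.15 ± 0.31 and 10.88 ± 0.31 in fus3-3 at 8 and 12 DAF, against 2.63 and 2.70 in Col-0 (rises of 5.52 ± 0.17 and 8.18 ± 0.17). In the WS set JAL33 stayed between 2.60 and 3.49 on all 18 arrays, lec1-1 and lec2-1 included. JAL23 (AT2G39330) was between 2.40 and 2.63 on every array with the Col-0 background, and at 12 DAF it rose to 4.19 ± 0.34 in lec1-1 (1.51 ± 0.14) and 6.32 ± 0.25 in lec2-1 (3.64 ± 0.14), from 2.67 ± 0.02 in WS. AT2G25980 rose in fus3-3 (3.23 ± 0.26 at 8 DAF and 4.32 ± 0.26 at 12 DAF) and in lec1-1 at 8 DAF (1.13 ± 0.23). In lec2-1 at 12 DAF it was lower than in WS, by less than 2-fold (-0.89 ± 0.23, adjusted p = 0.00986). Its age change in lec2-1 was below that in WS (-1.02 ± 0.33, adjusted p = 0.044). Seeds of fus3-3 came only with the Col-0 set, and those of the lec mutants only with the WS set. For JAL33 and JAL23 the mutation and the background therefore cannot be told apart. Neighbouring lectin genes are alike in sequence, and reading of one by the probe set of another was not tested.

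The glycoside hydrolase family of PYK10 and BGLU19 was measured through 20 of 45 other genes. In fus3-3, 3 rose and 2 fell at 8 DAF, and 2 rose and 6 fell at 12 DAF. In lec1-1, 2 rose and 3 fell at 8 DAF, and 3 rose and 4 fell at 12 DAF. In lec2-1 none passed at 8 DAF, and 2 rose and 1 fell at 12 DAF. The shares of all genes that rose were 4.04% and 12% in fus3-3, 4.76% and 10.4% in lec1-1, and 1.6% and 5.1% in lec2-1, at 8 and 12 DAF. The shares of all genes that fell were 4.25% and 11.5% in fus3-3, 5.79% and 9.96% in lec1-1, and 1.08% and 1.32% in lec2-1, at 8 and 12 DAF. The 2 that rose in lec1-1 at 8 DAF became 0 or 1 without WS replicate 1 or any one lec1-1 array of that age. In lec2-1, 1 fell at 8 DAF without WS replicate 2 or lec2-1 replicate 3, and none fell at 12 DAF without lec2-1 replicate 2. The median change of the family lay between -0.31 and 0.02, and that of all genes between -0.11 and 0.01. At an r of at least 0.90 no family member followed PYK10 or BGLU19 over the 10 groups, the highest being BGLU42 with PYK10 (0.87) and BGLU25 with BGLU19 (0.69).

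BGLU42 and BGLU44 were the 2 family members that rose in all 3 mutants at 12 DAF. BGLU44 went from 10.83 ± 0.09 at 8 DAF to 7.82 ± 0.54 at 12 DAF in Col-0 and from 11.05 ± 0.08 to 7.93 ± 0.07 in WS. At 12 DAF it was at 10.86 ± 0.10 in fus3-3, 11.37 ± 0.05 in lec1-1 and 9.93 ± 0.26 in lec2-1. The rises over the wild type at 12 DAF were 3.04 ± 0.23, 3.44 ± 0.11 and 2.00 ± 0.11, and at 8 DAF BGLU44 was lower in fus3-3 (-1.11 ± 0.23) and lec1-1 (-1.14 ± 0.11). BGLU42 fell with age in Col-0 from 4.35 ± 0.37 to 2.93 ± 0.02 and in WS from 4.79 ± 0.15 to 2.81 ± 0.25. Its levels at 12 DAF were 5.97 ± 0.35 in fus3-3, 5.85 ± 0.05 in lec1-1 and 4.44 ± 0.13 in lec2-1.

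BGLU29 fell at 12 DAF in fus3-3 from 9.37 ± 0.17 to 5.30 ± 0.42 (-4.06 ± 0.19, adjusted p = 3e-07) and in lec1-1 from 10.44 ± 0.16 to 6.60 ± 0.46 (-3.83 ± 0.17, adjusted p = 2.55e-10). In lec2-1 it was at 9.66 ± 0.12 (-0.78, under 2-fold). BGLU19, by contrast, passed at 12 DAF in fus3-3 and not in lec1-1. Those mutants came with different wild types, so in that contrast too the mutation and the background cannot be told apart. BGLU46, whose protein acts on monolignol glucosides, fell at 12 DAF in fus3-3 (-1.80 ± 0.22), lec1-1 (-1.47 ± 0.17) and lec2-1 (-1.08 ± 0.17). BGLU28, known for its rise under sulfur shortage, rose in fus3-3 at 8 DAF (3.09 ± 0.62) and in lec1-1 at 12 DAF (1.67 ± 0.23). BGLU25 rose with age in Col-0 (2.03 ± 0.15) and WS (1.51 ± 0.14), the direction of BGLU19. ATA27, BGLU27, BGLU33, BGLU36, BGLU43 and BGLU47 were under 3 on all 30 arrays.

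**Figure D3:**
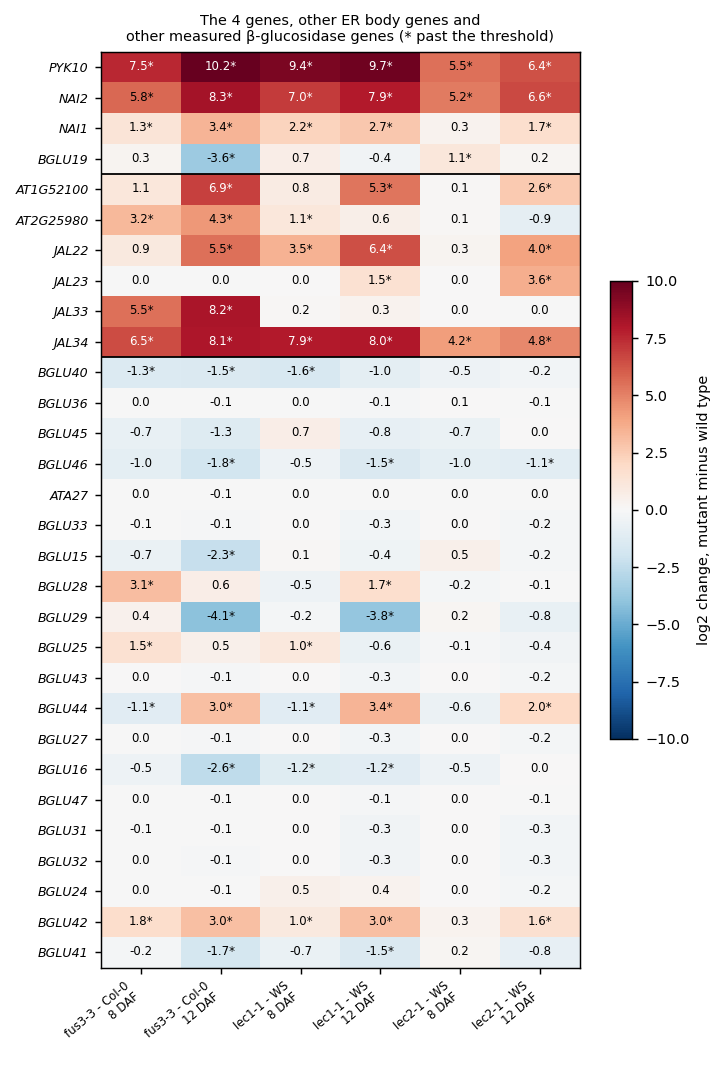
Log2 change of each measured gene in the 6 mutant comparisons, as colour and number. Rows are the 4 genes, 6 other genes listed for the ER body or the PYK10 complex, and 20 other β-glucosidase genes. A star marks an adjusted p under 0.05 with a change of at least 2-fold. PYK10, NAI2 and JAL34 are starred in all 6 columns, and most β-glucosidase genes are not starred.

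Indole glucosinolates, substrates of PYK10, are made by a pathway of which 1 of 18 listed genes was measured. UGT74B1 (AT1G24100), which adds the glucose of the glucosinolate core, rose in fus3-3 by 1.05 ± 0.12 at 8 DAF and 1.23 ± 0.12 at 12 DAF. In lec1-1 it rose by 1.73 ± 0.14 at 8 DAF and 1.26 ± 0.14 at 12 DAF. In lec2-1 its changes of 0.08 and -0.02 did not pass, and it was higher in lec1-1 than in lec2-1 by 1.65 ± 0.14 at 8 DAF and 1.28 ± 0.14 at 12 DAF.

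The 9 measured storage and oil body genes mostly fell in fus3-3 and lec1-1, where PYK10 rose. In fus3-3, 1 rose and 5 fell at 8 DAF (median -1.23) and all 9 fell at 12 DAF (median -1.76). Of all genes, 4.04% rose and 4.25% fell at 8 DAF (median -0.02) and 11.5% fell at 12 DAF (median -0.06). In lec1-1, 7 fell at 8 DAF (median -1.39) and 8 at 12 DAF (median -1.56), against 5.79% of all genes (median 0.01) and 9.96% (median -0.11). In lec2-1 none passed at 8 DAF (median -0.48, of all genes 0.01) or at 12 DAF (median -0.22, of all genes -0.08). All 9 were lower than in WS at 8 DAF, though, 7 of them at an adjusted p under 0.05 but by less than 2-fold, and 8 were lower at 12 DAF, 3 of them at such a p. The oleosin gene OLEO3 was 11.02 ± 0.64 in fus3-3 against 13.39 ± 0.42 in Col-0 at 12 DAF. With BGLU19 the highest r of this list was that of AT2G25890 (0.93), which went from 8.31 ± 0.25 to 12.34 ± 0.12 with age in Col-0 and from 9.47 ± 0.15 to 12.28 ± 0.06 in WS.

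The genes whose 10 group means were most like those of each of the 4 were taken by Pearson r among 6197 genes whose group means spanned at least 1 log2 unit. Levels and changes of genes picked this way describe the choice and are not separate evidence. At an r of at least 0.90 stood 125 genes for PYK10 (2.02% of those genes), 79 for NAI2 (1.27%), 115 for NAI1 (1.86%) and 133 for BGLU19 (2.15%). For PYK10 the nearest 5 were NAI2 (0.99), JAL34 (0.99), AT5G66470 (0.98), AT1G27930 (0.98) and AT3G21300 (0.98). For NAI2 they were ALDH3F1 (an aldehyde dehydrogenase gene, 0.99), AT4G23670 (0.99), PYK10 (0.99), scpl50 (a serine carboxypeptidase-like gene, 0.98) and AT1G27930 (0.98). Both lists thus held the partner gene and AT1G27930. AT1G27930 went from 2.09 to 2.35 in the wild-type groups to 6.70 and 7.57 in fus3-3, 7.43 and 7.91 in lec1-1, and 4.99 and 6.19 in lec2-1, at 8 and 12 DAF. Like PYK10 and NAI2 in Col-0, ALDH3F1 (-1.61) and AT4G23670 (-2.02) fell between 8 and 12 DAF, and at 8 DAF both were lower in WS than in Col-0 (-1.56 and -1.81).

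For NAI1 the nearest were AT5G55450 (0.98), AT5G20130 (0.98), AT3G11450 (0.98), AT5G49760 (0.97) and AT4G34220 (0.97). AT5G55450 was at 2.92 to 3.25 in the wild types, at 8.76 in fus3-3 and 8.70 in lec1-1 at 12 DAF, and in lec2-1 at 4.58 at 8 DAF and 7.51 at 12 DAF. Neither PYK10 nor NAI2 was among these 5. Taken over the 30 arrays in place of the 10 means, 3 of 5 genes were again named for PYK10 and for NAI1, 4 for NAI2 and 5 for BGLU19.

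For BGLU19 the nearest were AT5G55050 (0.99), AT1G14930 (0.99), AT5G05600 (0.98), AT1G14940 (0.98) and AT3G21380 (0.98). They were picked for following BGLU19 over these same groups, so a like course is largely built into the choice. All 5 rose from 8 to 12 DAF in all 5 genotypes and fell in fus3-3 at 12 DAF against Col-0. The falls were -1.87 for AT5G55050, -2.90 for AT1G14930, -1.46 for AT5G05600, -6.05 for AT1G14940 and -6.22 for AT3G21380. None of the 5 passed in lec1-1 or lec2-1 against WS at 12 DAF, with changes between -0.95 and 0.68. AT3G21380 lies 2 places after BGLU19 in the gene order. Its level was 2.24 in Col-0 at 8 DAF, 10.93 in Col-0 and 4.72 in fus3-3 at 12 DAF, and 12.21 in WS, 11.95 in lec1-1 and 12.25 in lec2-1 at 12 DAF. AT1G14930 and AT1G14940 are neighbours of each other.

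**Figure D4:**
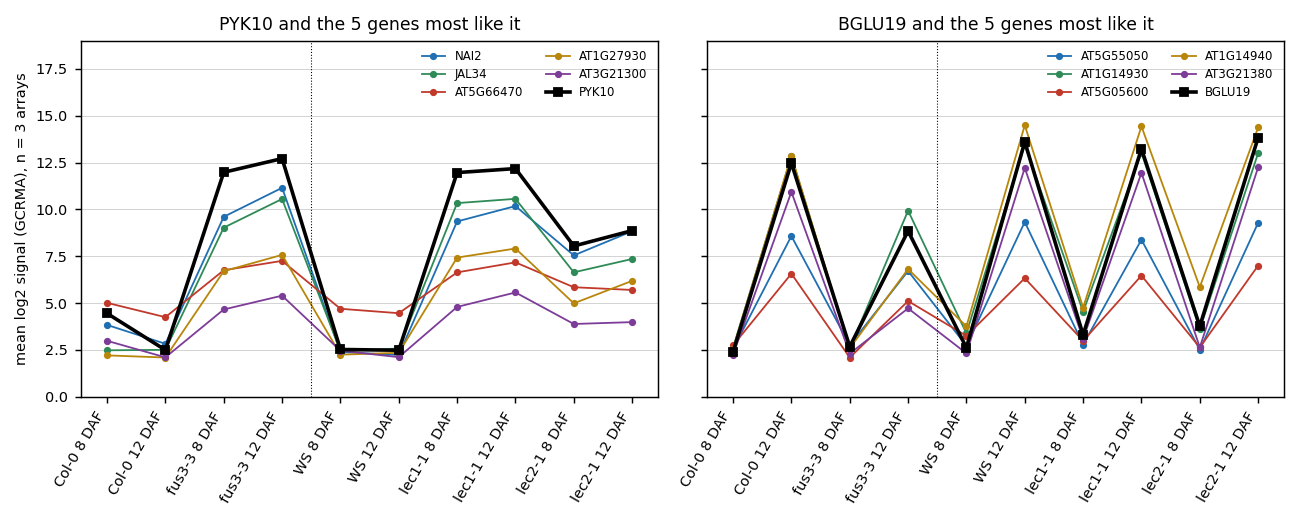
Mean log2 signal (3 arrays per group) of PYK10 and of BGLU19, in black, with the 5 genes whose group means are most correlated with each, over the 10 groups. Lines only guide the eye along one gene, the dotted line separates the Col-0 set from the WS set, and heights of different genes are not comparable. Chosen for their correlation, the genes like PYK10 are high in the mutants. Those like BGLU19, chosen the same way, are high at 12 DAF with a lower value in fus3-3.

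Of the genes next to the 4 on the chromosome, 4 were measured, and 1 of these passed in any comparison. AT3G09250, whose annotated span overlaps PYK10, stayed between 5.72 and 6.73 in all group means (r of 0.14 with PYK10) and passed in no comparison. AT3G21360, which overlaps BGLU19, stayed between 4.61 and 5.64 (r of 0.68) and passed in none. AT2G22760, before NAI1, lay between 2.17 and 2.24 in every group. AT3G15940, before NAI2, had an r of 0.16 with it, rose in lec1-1 at 12 DAF (1.09 ± 0.43, adjusted p = 0.0376), fell with age in WS (-1.92 ± 0.43), and was lower in WS than in Col-0 at 12 DAF (-1.69 ± 0.36). Of all genes, 10.4% rose, 8.87% fell and 472 of 13286 were lower in those comparisons, in the same order.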

How the data were processed

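RNA of dissected seeds (2 µg of total RNA a sample) was labelled as biotin cRNA and hybridised to Affymetrix arrays with 22810 probe sets, per the labels' protocols. The deposited values are log2 signals, which the authors made with GCOS 1.3 and GCRMA according to the submitters' processing notes. No version of GCRMA, no genome build and no statement on joint processing of the arrays is given in the sources used here. The deposited log2 values were used unchanged.

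Names came from the array annotation, with TAIR10.1 serving for names and gene order only. Controls numbered 64, another 13513 probe sets had 1 gene, 503 had several and 8730 are unnamed here. A locus was found for 13436, and the one of highest mean was kept for each of 13286 genes. No sequence was used here, so planned searches of promoters and proteins were not made.

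Models were fitted with limma 3.58.1 in R 4.3.3 (lmFit and eBayes, no trend, 1 mean per group) over 12 arrays of the Col-0 set, 18 of the WS set, or all 30 for WS against Col-0. P-values of each of 18 comparisons were adjusted by Benjamini-Hochberg over all genes, and the fit was tested on simulated data. Arrays are called biological replicates in the labels, and where samples shared a source, p-values measure only the spread between these samples. The members and gene lists were chosen with earlier results of these data known. Named are the 4 genes, measured members of the lists, and the 5 genes most like each of the 4 by Pearson r; neighbours were added. Drawing used matplotlib 3.10.9 and Python 3.11.15.

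Pairing by replicate number was checked through correlations of deviations from group means. All 3 numbers exceeded 0.1 only for fus3-3 at 12 against 8 DAF (0.24, 0.22 and 0.45), where pairing comes from the data alone. Alternatives were repeated quantile normalization, centring on 7 measured of 12 reference genes, all probe sets but controls, leaving out the 40 percent of genes with the lowest mean, a fit of the compared groups alone, a joint fit of 30 arrays, the replicate block, trended and robust variances, leaving out each array, r over 30 arrays and, chosen after seeing the data, Col-0 at 12 DAF averaged to 1 array.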

Additional observations from a re-analysis of the deposited data

Results flagged for a closer look

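The age change from 8 to 12 DAF differed between a mutant and its wild type, by a test of the difference itself, for 7 combinations of gene and mutant. In fus3-3 against Col-0, these were PYK10 (2.69 on the log2 scale, adjusted p = 0.000151), NAI1 (2.11, adjusted p = 0.00111), NAI2 (2.56, adjusted p = 0.00208) and BGLU19 (-3.91, adjusted p = 0.000342). In lec1-1 against WS it was BGLU19 (-1.06, adjusted p = 0.017). In lec2-1 against WS these were NAI1 (1.34, adjusted p = 0.0467) and NAI2 (1.45, adjusted p = 0.00391). Of these, the values for BGLU19 in lec1-1 and NAI1 in lec2-1 lost the call in alternatives given with the processing, and the causes of the differences were not tested. All but the 2 values for NAI1 rest in part on groups with a mean under 3, so their sizes are not exact. The wild-type means of NAI1, from 3.04 to 3.65, were only a little over 3, so its sizes may not be exact either.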

How the results depend on the processing

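Of the 72 results of the 4 genes, recomputed under the other settings, 567 values kept their direction and their side of the threshold, 10 lost a call, 3 gained one and 4 changed sign. On leaving out each array the counts were 473, 19, 6 and 6. No call of a mutant against its own wild type was lost under any alternative, except BGLU19 in lec2-1 at 8 DAF, which ran from 0.97 to 1.25 over the arrays left out. Centring on reference genes gave BGLU19 in lec1-1 at 8 DAF a call (1.01). It moved the age change of NAI2 in Col-0 to -0.93, which lost its call, and that of PYK10 in WS to 0.11. In the lec2-1 minus WS age change, BGLU19 gained a call (-1.03, adjusted p = 0.0248) and NAI1 lost its call (1.23, adjusted p = 0.0569). Centring also moved the WS minus Col-0 difference to -0.034 for NAI1 at 8 DAF and 0.022 for PYK10 at 12 DAF. With quantile normalization again, NAI2 gained a call (1.01) and BGLU19 lost its call (-0.81) in the lec1-1 age change against WS. NAI1 lost its call in that of lec2-1 (1.26, adjusted p = 0.0943). In WS minus Col-0, NAI1 was at -0.0055 at 8 DAF, and BGLU19 lost its call at 12 DAF (0.93). With only the groups compared, NAI2 in Col-0 with age (-1.01, adjusted p = 0.109) and NAI1 in the lec2-1 age change (1.34, adjusted p = 0.0932) lost their calls. With the replicate block the same NAI1 value (1.34) had an adjusted p of 0.069, and the block changed no other call of the 4 genes, fus3-3 with age included. With the Col-0 arrays of 12 DAF averaged to 1, NAI2 in Col-0 with age (-1.01, adjusted p = 0.129) and BGLU19 in WS minus Col-0 at 12 DAF (1.13, adjusted p = 0.0795) lost theirs. The fits with only the groups compared and with the average hold fewer arrays, and the cause of the other changes was not tested.

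Over the arrays left out, the age change of NAI2 ran from -1.24 to -0.65 in Col-0 and from 0.66 to 1.08 in lec1-1, and that of PYK10 in lec2-1 from 0.65 to 1.04. Against the wild-type age change, lec1-1 ran from 0.82 to 1.24 for NAI2 and from -1.37 to -0.90 for BGLU19, and lec2-1 from 0.69 to 1.08 for PYK10 and from 1.03 to 1.62 for NAI1. NAI1 in lec1-1 minus lec2-1 at 12 DAF ran from 0.88 to 1.17. In WS minus Col-0, NAI1 at 8 DAF ran from -0.24 to 0.28 and PYK10 at 12 DAF from -0.038 to 0.0073.

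Centring moved the median of all genes in lec1-1 at 8 DAF from 0.01 to 0.33, and by over 0.1 in 7 other comparisons. The higher and lower calls went from 632 and 769 to 1118 and 435 in lec1-1 at 8 DAF and from 1381 and 1323 to 1691 and 926 at 12 DAF. They went from 301 and 374 to 531 and 225 in lec1-1 minus lec2-1 at 8 DAF and from 735 and 732 to 1264 and 465 at 12 DAF. With age they went from 857 and 1178 to 1118 and 1009 in WS and from 564 and 639 to 785 and 540 in fus3-3, and in the lec2-1 age change from 686 and 269 to 609 and 393. In the list for the ER body and the PYK10 complex, 1 gene fell in lec2-1 at 12 DAF after quantile normalization. Of the β-glucosidase genes, 2 fell in that same case, and 1 fell in lec1-1 at 8 DAF after centring.

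Testing all probe sets but controls, which are more features, raised the calls from 1102 to 2144 for fus3-3 at 8 DAF, 3118 to 6078 for fus3-3 at 12 DAF, 1401 to 2751 for lec1-1 at 8 DAF, 2704 to 5347 for lec1-1 at 12 DAF, 357 to 764 for lec2-1 at 8 DAF and 852 to 1795 for lec2-1 at 12 DAF against the wild type. With age they went from 2411 to 4661 for Col-0, 2035 to 3950 for WS, 1203 to 2461 for fus3-3, 1482 to 2945 for lec1-1 and 1727 to 3395 for lec2-1, and in age change against the wild type from 2107 to 4168 for fus3-3, 2136 to 4174 for lec1-1 and 955 to 1967 for lec2-1. They went from 675 to 1356 at 8 DAF and 1467 to 2994 at 12 DAF in lec1-1 minus lec2-1, and from 857 to 1621 and 741 to 1500 in WS minus Col-0. Group means under 3 limit folds to lower bounds.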
